A study of Mus musculus with 8 samples.

Results

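The transcripts described here are those of the nucleolar ribosome assembly line and the RNA exosome. They are 56 of the 13607 genes in the count table. They were taken by name: every symbol that begins with Nop, Utp, Rrp, Nol or Exosc and goes on with a number, the RNA polymerase I subunits Polr1a to Polr1e, and Rrs1, Bop1, Pes1, Fbl, Ncl, Npm1 and Dkc1. By the known function of the protein, 5 belong to RNA polymerase I, 18 to the small-subunit processome, 10 to large-subunit assembly, 5 to the core of small nucleolar ribonucleoproteins (snoRNPs), 10 to the exosome and 5 to other nucleolar proteins. The remaining 3, Nol3, Nol4 and Nol4l, share the name but have no known part in making ribosomes. They are counted among the 56 members below and described as a role of their own. The rule reads names only, but it was set with earlier results of these data known.

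Ribosome production starts in the nucleolus, where RNA polymerase I copies the ribosomal DNA into one long precursor RNA. Box C/D and box H/ACA snoRNPs modify bases of that precursor, the small-subunit processome folds and cuts the part that becomes the small subunit, and a separate set of factors assembles the large subunit. The exosome, a ring of proteins with a cap and attached nucleases, trims the ends of the precursors and degrades the spacers. Growing cells spend much of their transcription on this line, and many of its genes are known targets of the transcription factor MYC.

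The cells were mouse astrocytes, the main glial support cell of the brain, on the C57BL/6J background, and all groups carried the floxed alleles Yapf/f;Tazf/f. HER2CA, an active form of the growth factor receptor HER2, was delivered by lentivirus under a doxycycline-inducible system, together with rtTA, which drives it, and CreERT2, a recombinase that 4-hydroxytamoxifen (4OH-TAM) switches on. The control astrocytes grew without doxycycline and were not transformed. The HER2CA day 15 group had 15 days of doxycycline. The 4OH-TAM group had the same 15 days with 1 µM 4OH-TAM, meant to delete Yap1 and Wwtr1, which encode YAP and TAZ. The gliomaspheres were HER2CA-expressing spheres of passage P1, kept in suspension with doxycycline and harvested 3 weeks after the start. The sample labels list DMSO for the HER2CA day 15 and gliomasphere groups, while the treatment protocol calls the cells without 4OH-TAM untreated. All media held N-2 supplement, EGF and bFGF. Each group had 2 libraries, A and B. The labels do not say whether these came from separate cultures, so p-values measure a spread that may be technical.

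Depth ran from 15517708 to 28231426 counts per library, and the lowest count of a member in any library was 48, for Nol4, with 103 or more for every other member. Wwtr1 was lower in the 4OH-TAM-labelled libraries than in HER2CA day 15, at 123 and 122 CPM against 194 and 210.3 (log2 -0.73, adjusted p = 1.25e-07), but Yap1 was not: 107 and 103 CPM against 101 and 103 (log2 0.04, adjusted p = 0.569). Which exons the floxed alleles remove is not stated in the labels, and counts over a whole gene can hold reads from exons outside the deleted stretch, so the Yap1 count does not tell whether the gene was deleted. Those libraries are therefore named by their label throughout. In bulk RNA, fewer cells of a type and less RNA per cell cannot be told apart. One library stood apart: in gliomasphere B the precursor of ribosomal RNA, Rn45s, took 36.1% of the counts, against 0.984% to 2.92% in the other 7 libraries. Levels are therefore CPM (each count scaled to a common library total) on library sizes scaled by trimmed mean of M-values (TMM), which was 0.637 for that library and 1.03 to 1.12 for the others. Rn45s has no poly(A) tail, and its count in these poly(A) libraries is no measure of ribosomal RNA output.

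The promoters of the members give the sequence context. RefSeq windows of 250 bases before the transcription start (GRCm38.p6) were matched for 43 of the 56 members. They were searched on both strands for the E-box CACGTG, the site that MYC and other factors of its class can bind. It was present in 6 of the 43, which is 14.0%, against 9.76% of the 10820 genes of the count table that have a window. The 6 are Exosc5, Nol11, Nop2, Rrp7a, Utp14b and Utp18. The amino acid response site TGATGCAA was in 0 of 43, against 0.647% of the count table's genes. The windows below are those of the snoRNP gene Nop56 and the processome gene Nop14, which changed most in their roles in HER2CA day 15 against control and hold no E-box, and of 4 members that hold one. Capitals mark the E-box, and each line is written 5′ to 3′ on the strand of the gene. The windows lie at chr2:130274162-130274411 (plus strand, Nop56), chr5:34660149-34660398 (minus, Nop14), chr6:125131633-125131882 (plus, Nop2), chr11:107189382-107189631 (minus, Nol11), chr11:93885767-93886016 (minus, Utp18) and chr7:25658903-25659152 (plus, Exosc5).
Nop56: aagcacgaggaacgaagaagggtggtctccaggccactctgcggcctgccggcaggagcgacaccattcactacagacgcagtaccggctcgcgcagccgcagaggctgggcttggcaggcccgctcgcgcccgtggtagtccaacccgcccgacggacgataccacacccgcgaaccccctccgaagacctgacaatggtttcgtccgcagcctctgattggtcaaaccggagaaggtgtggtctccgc
Nop14: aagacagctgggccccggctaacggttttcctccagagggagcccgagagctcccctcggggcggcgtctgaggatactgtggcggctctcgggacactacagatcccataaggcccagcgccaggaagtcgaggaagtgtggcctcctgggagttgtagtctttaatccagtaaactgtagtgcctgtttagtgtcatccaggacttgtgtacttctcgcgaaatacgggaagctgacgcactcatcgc
Nop2: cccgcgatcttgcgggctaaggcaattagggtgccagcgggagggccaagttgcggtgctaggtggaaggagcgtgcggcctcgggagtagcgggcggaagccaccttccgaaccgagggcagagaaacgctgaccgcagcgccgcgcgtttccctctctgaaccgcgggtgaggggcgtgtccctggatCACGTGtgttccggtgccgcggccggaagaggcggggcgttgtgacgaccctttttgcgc
Nol11: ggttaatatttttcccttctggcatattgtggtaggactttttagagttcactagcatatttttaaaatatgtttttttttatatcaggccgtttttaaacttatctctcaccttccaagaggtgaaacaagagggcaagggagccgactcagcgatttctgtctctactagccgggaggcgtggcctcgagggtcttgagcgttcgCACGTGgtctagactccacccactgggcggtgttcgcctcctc
Utp18: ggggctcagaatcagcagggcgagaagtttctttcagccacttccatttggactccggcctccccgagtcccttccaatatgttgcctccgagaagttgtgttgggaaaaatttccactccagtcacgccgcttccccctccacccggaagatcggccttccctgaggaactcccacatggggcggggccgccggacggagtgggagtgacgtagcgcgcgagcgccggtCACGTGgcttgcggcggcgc
Exosc5: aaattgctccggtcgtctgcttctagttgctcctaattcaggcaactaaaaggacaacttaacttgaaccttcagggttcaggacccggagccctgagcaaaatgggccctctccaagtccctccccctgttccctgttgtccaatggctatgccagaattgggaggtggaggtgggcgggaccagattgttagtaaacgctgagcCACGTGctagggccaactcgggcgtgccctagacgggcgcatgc
The first base of the E-box is 60 bases before the start in Nop2, 43 in Nol11, 20 in Utp18 and 44 in Exosc5. A match describes the letters of the window only, and no binding was measured.

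As a group, the members stood highest in HER2CA day 15 cells. Their summed level was 3075 ± 38.0 CPM in controls, 6613 ± 2.35 CPM in HER2CA day 15, 3113 ± 73.1 CPM in the 4OH-TAM-labelled libraries and 3681 ± 55.5 CPM in gliomaspheres (mean ± SD, n = 2 libraries each). The HER2CA day 15 sum was 2.15 times the control sum, 2.12 times that of the 4OH-TAM-labelled libraries and 1.8 times that of gliomaspheres. In 45 of the 56 members both HER2CA day 15 libraries lay above the other 6, as did 31.5% of all 13607 genes. In 4 members, Nol3, Nol4, Nol4l and Utp14b, both lay below the other 6, as did 30.2% of all genes. The group mean was highest in HER2CA day 15 for 49 members, in gliomaspheres for 6 and in controls for 1.

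**Figure D1:**
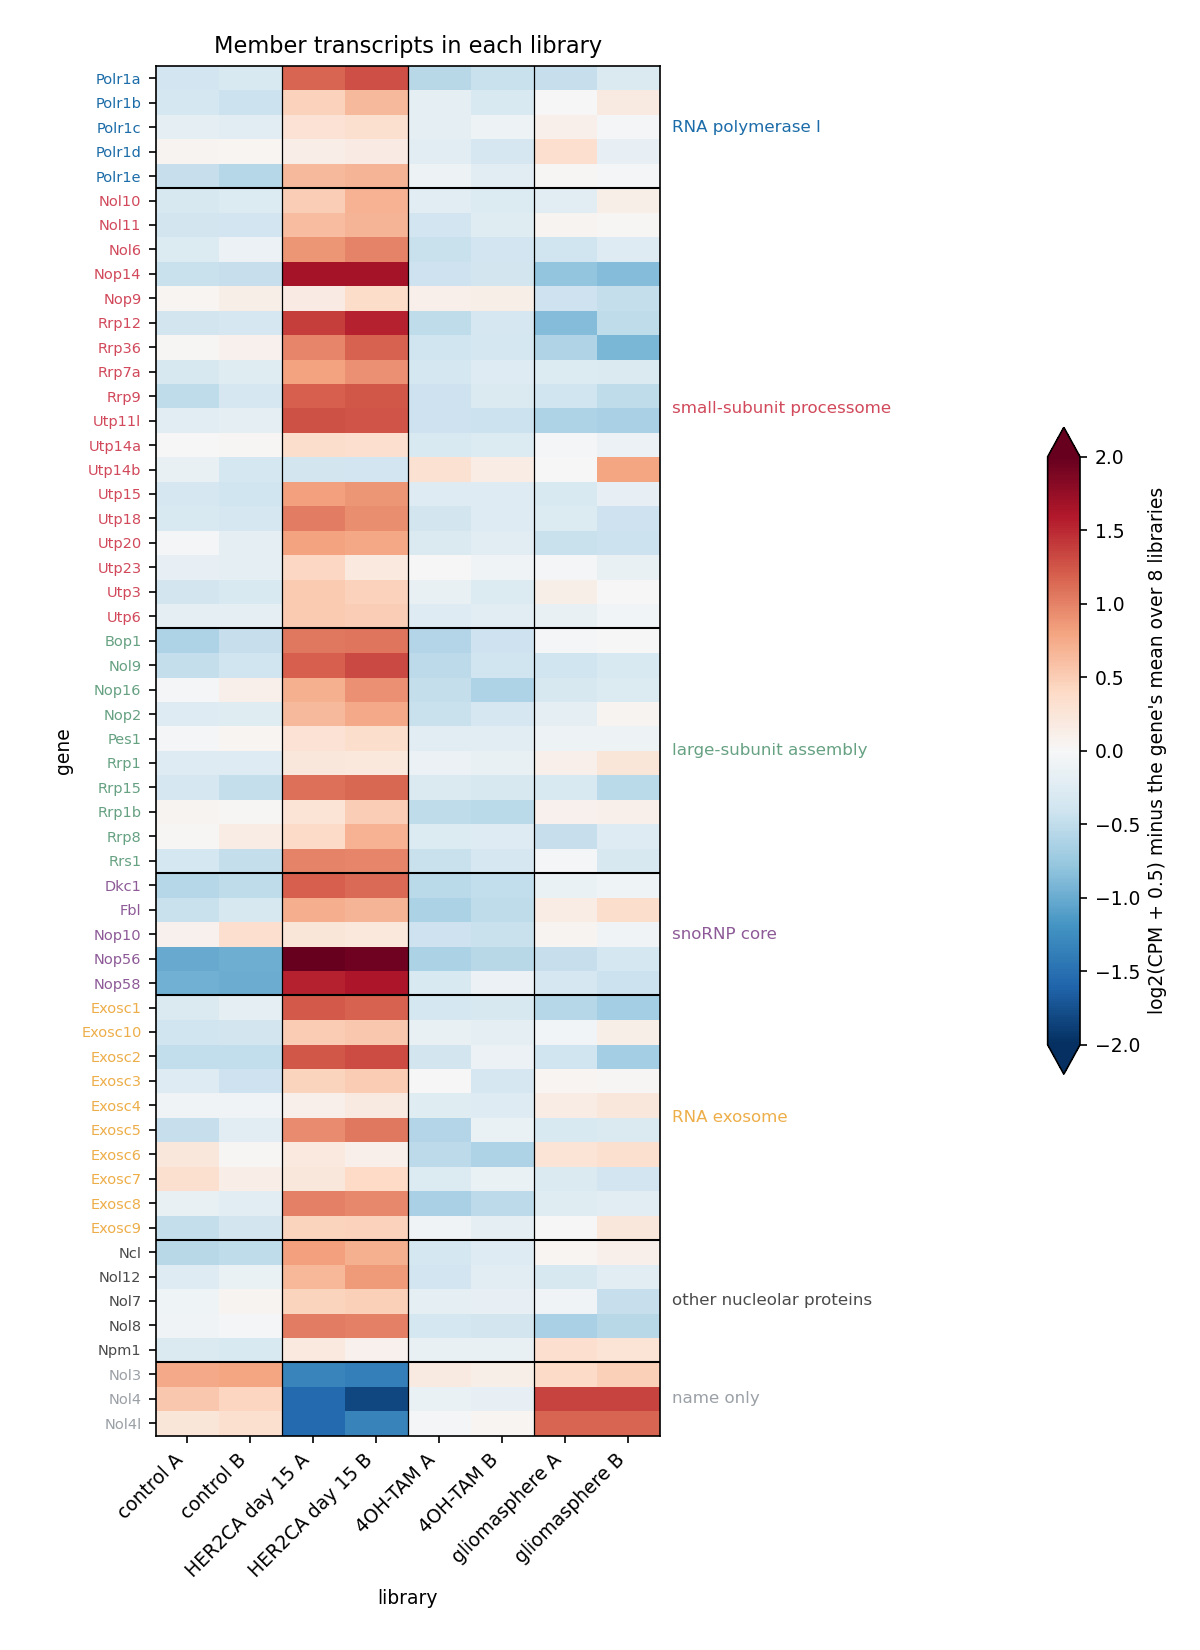
Level of each of the 56 members (rows, grouped and coloured by role) in each of the 8 libraries (columns), as log2(CPM + 0.5) minus the gene's mean over the libraries. Red is above and blue below that mean, the scale ends at 2 in both directions, and the 2 HER2CA day 15 columns are red in nearly every row above the 3 genes that share only the name.

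The first comparison set HER2CA day 15 against controls, which differ in doxycycline and HER2CA at once. The labels also list DMSO for HER2CA day 15. Against controls, 48 of the 56 members were higher, 3 were lower and 5 were not called by edgeR's quasi-likelihood test (Benjamini-Hochberg adjusted p under 0.05 over all genes). Over all genes tested, 37.3% were higher and 38.4% lower, or 5082 and 5226 genes. Upper-quartile factors made that 4207 and 6091, and no scaling 2304 and 3586, with 45 and 36 members higher and 3 lower in each. The members' median log2 fold change was 0.96, beside -0.02 over all genes, and 26 members rose at least 2-fold. All 3 lower members were the ones that share only the name. The 5 not called were Polr1d, Utp14b, Nop10, Exosc6 and Exosc7. By role, the summed level rose most in the snoRNP core, 4.35 times, then the processome (2.28), RNA polymerase I (2.11), the exosome (2.01), the other nucleolar proteins (2.01) and large-subunit assembly (1.86). These role ratios carry no test. Values below are CPM in libraries A and B.

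**Figure D2:**
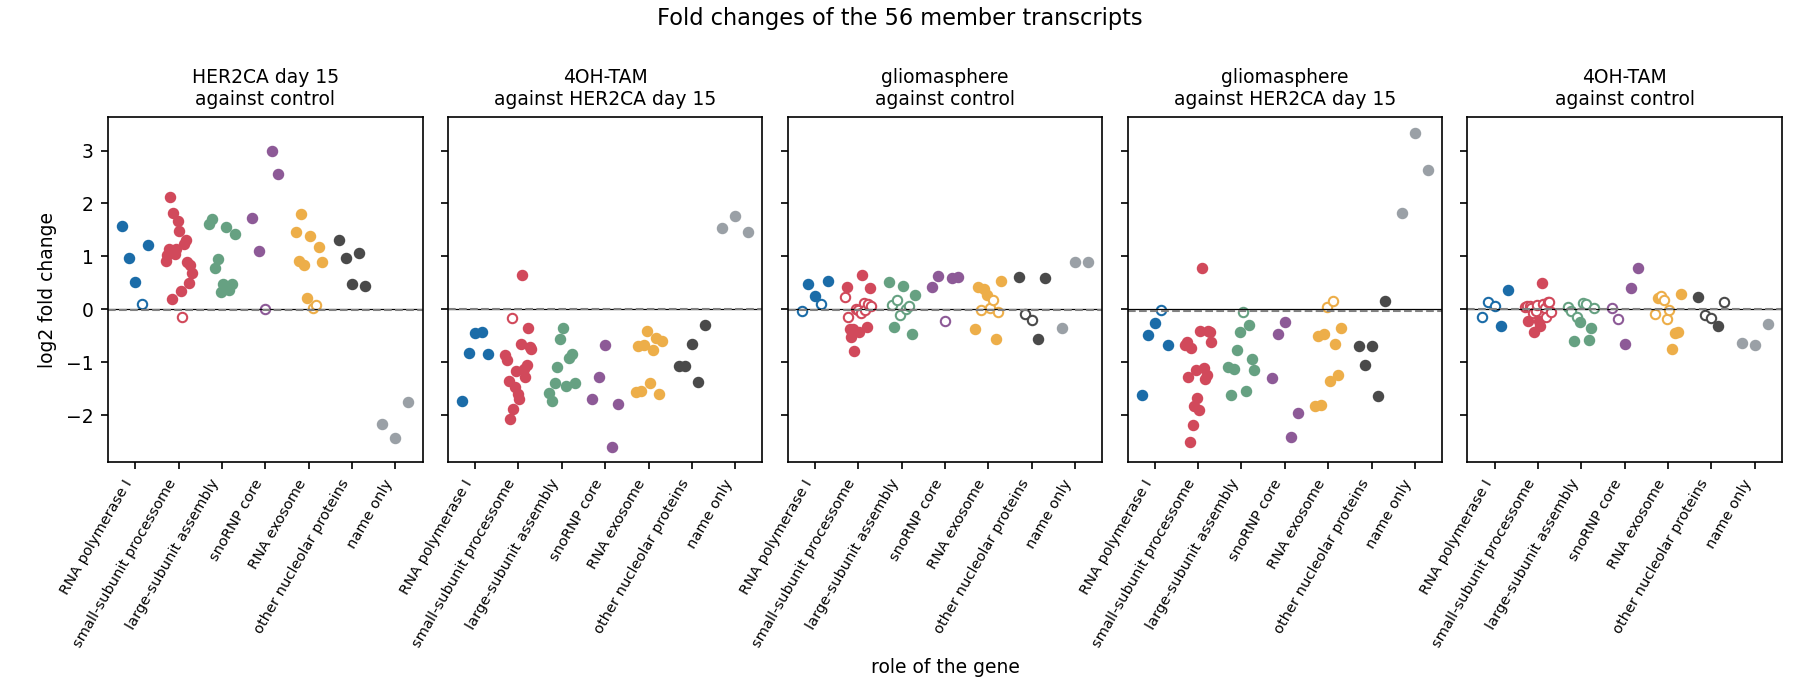
Log2 fold change (vertical axis) of every member by role (horizontal axis) in the 5 comparisons, filled where the edgeR adjusted p was under 0.05 and open where it was not. The solid line is 0 and the dashed line is the median over all 13607 genes. Most points lie above both lines in HER2CA day 15 against control and below them in both comparisons that put another HER2CA group against HER2CA day 15.

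The snoRNP core held the 2 largest increases. Nop56, a scaffold protein of box C/D snoRNPs that guide RNA methylation, lies at 2:130274430-130279313. It read 46.5 and 47.4 in controls, 388 and 361 in HER2CA day 15, 60.1 and 64.0 in the 4OH-TAM-labelled libraries and 68.4 and 73.0 in gliomaspheres. Both HER2CA day 15 libraries were far above the other 6, which did not overlap between groups either. The rise over controls was 7.98-fold (log2 3.00, SE 0.0761, adjusted p = 3.14e-13). Nop58, its partner in the same particle at 1:59684971-59719044, read 43.9 and 43.4 in controls, 251 and 265 in HER2CA day 15, 69.9 and 79.2 in the 4OH-TAM-labelled libraries and 68.3 and 63.7 in gliomaspheres. It rose 5.92-fold (log2 2.57, SE 0.0801, adjusted p = 1.5e-12), and the groups labelled 4OH-TAM and gliomasphere both stood above controls. Both genes host snoRNAs in their transcripts. Each single snoRNA overlaps 0.781% to 2.44% of the exon bases of its host, and Nop56 holds several, at 2.1%, 1.71%, 2.44% and 1.76%.

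Fbl, the methyltransferase of box C/D particles, rose 2.14-fold (adjusted p = 1.58e-08), from 44.2 and 48.0 in controls to 100.2 and 96.8. Dkc1, the pseudouridine synthase of box H/ACA particles, read 34.6 and 36.0 in controls and 118 and 114 in HER2CA day 15, and rose 3.29-fold (log2 1.72, adjusted p = 2.4e-11). Nop10, a small subunit of the same H/ACA particle, read 26.8 and 32.2 in controls and 30.1 and 29.4 in HER2CA day 15. Its libraries overlapped and its log2 difference was 0.01 (SE 0.0972, adjusted p = 0.906). Dkc1 and Nop10 are subunits of 1 particle, and only Dkc1 was called higher; the difference between them was not tested.

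**Figure D3:**
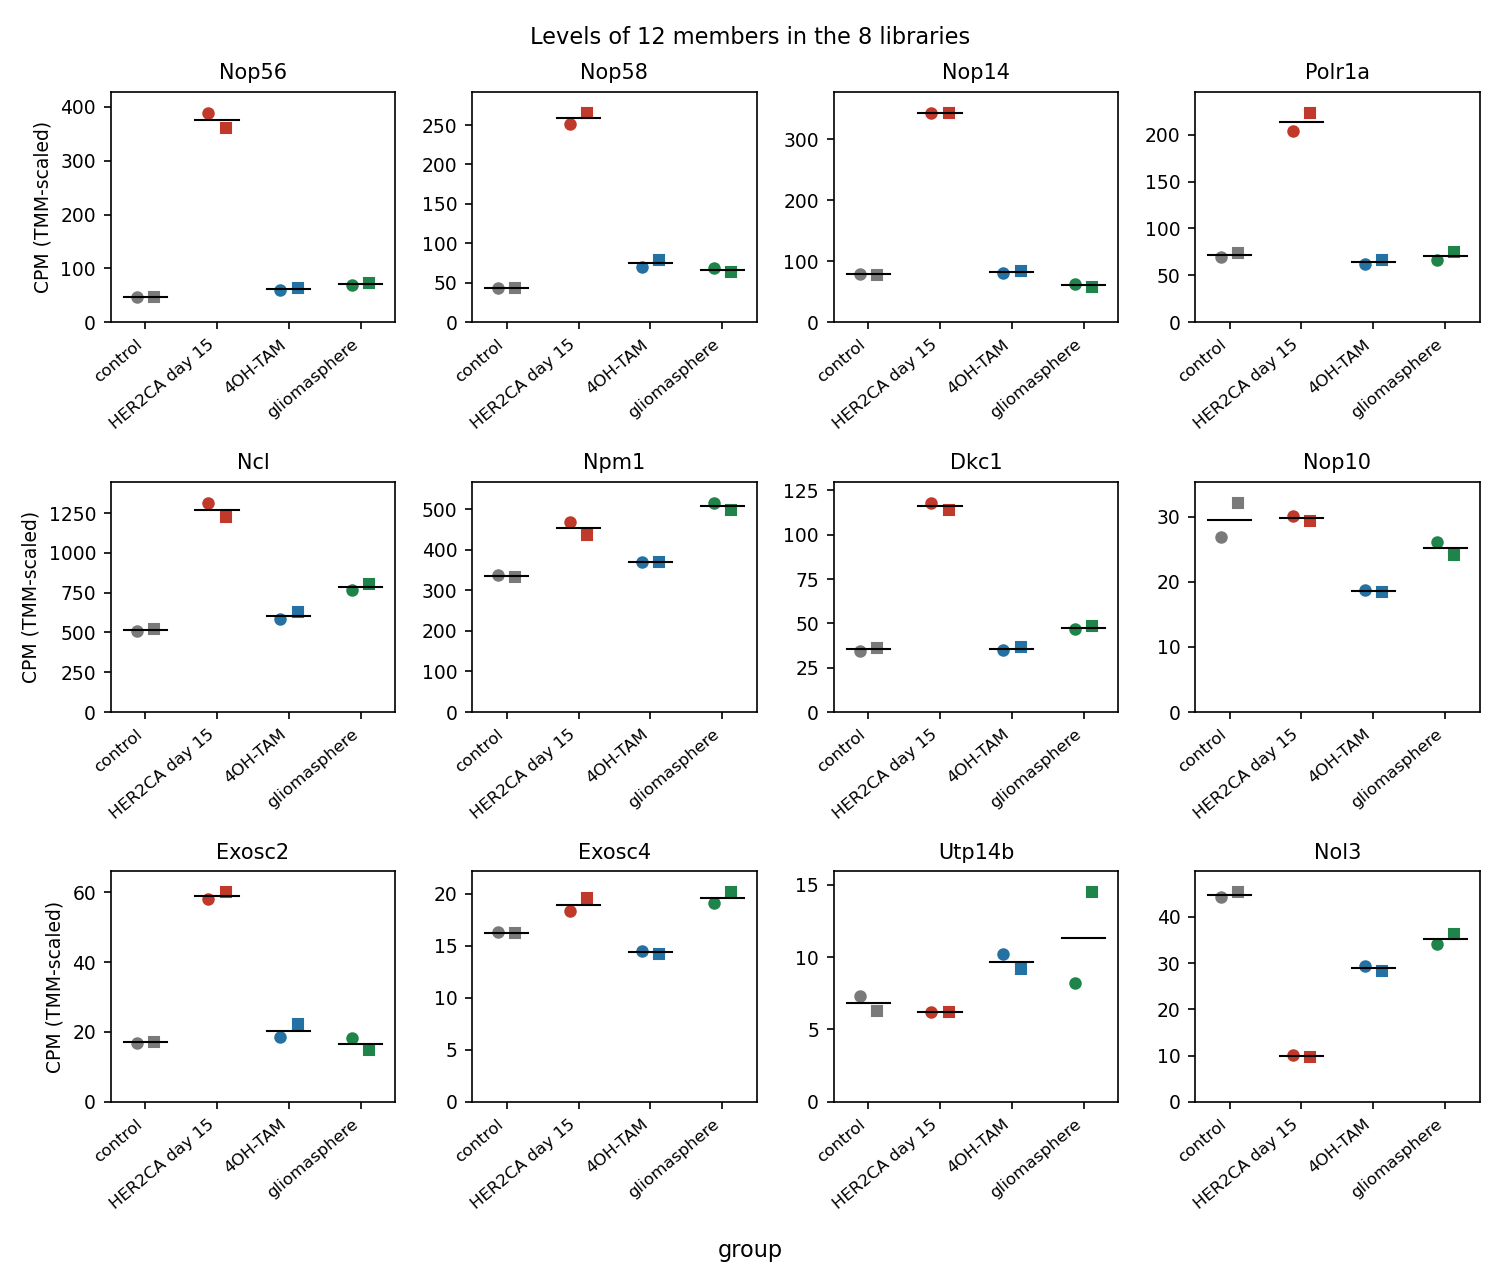
CPM (vertical axis, from 0, TMM-scaled) of 12 members in the 4 groups, circles for library A, squares for library B and a bar at the mean of 2. Nop56, Nop58, Nop14, Polr1a, Ncl, Dkc1 and Exosc2 stand highest in HER2CA day 15, Npm1, Exosc4 and Utp14b have their highest mean in gliomaspheres, Nop10 is lowest in the 4OH-TAM-labelled libraries, and Nol3 is lowest in HER2CA day 15.

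Among processome genes, 17 of 18 rose and 10 of them at least 2-fold. Nop14, a structural factor of the early small subunit (5:34638536-34660148), read 78.8 and 77.9 in controls, 343 and 342 in HER2CA day 15, 80.5 and 83.3 in the 4OH-TAM-labelled libraries and 61.9 and 58.6 in gliomaspheres. It rose 4.37-fold (log2 2.13, SE 0.0677, adjusted p = 1.69e-12), and gliomaspheres were the lowest group. Rrp12, which takes part in the export and cleavage of pre-ribosomes, read 35.7 and 36.6 in controls, 121 and 135 in HER2CA day 15, 32.4 and 36.7 in the 4OH-TAM-labelled libraries and 25.1 and 32.5 in gliomaspheres. Its rise was 3.54-fold (log2 1.82, adjusted p = 4.4e-10), while the remaining 3 groups lay close together. Rrp9, a U3 snoRNP protein, rose by a log2 of 1.67, and Utp11l, the table's name for Utp11, rose 2.80-fold. The smallest called increases were those of Nop9 (log2 0.20) and Utp14a (log2 0.34).

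The call of Nop9 is not firm. It read 49.96 and 52.5 in controls and 54.6 and 62.8 in HER2CA day 15, with an adjusted p of 0.0385, which became 0.388 without HER2CA day 15 B and 0.653 with upper-quartile factors. The exons of Nop9 also share 29.9% of their bases with Cideb on the opposite strand. Utp14b, a close relative of Utp14a, was the exception of the role: it read 7.33 and 6.30 in controls and 6.23 and 6.17 in HER2CA day 15, a log2 difference of -0.14 (SE 0.206, adjusted p = 0.552). Reads of such close copies may be split between them, and Utp14b shares exon bases with Acsl3 on the same strand, so its values are uncertain.

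All 10 genes of large-subunit assembly rose. Nol9, a kinase that acts on the cut internal spacer (4:152039321-152061494), read 49.5 and 52.2 in controls and 158 and 172 in HER2CA day 15, 3.24-fold higher (log2 1.70, adjusted p = 5.23e-11). It then read 47.7 and 51.9 in the 4OH-TAM-labelled libraries and 52.1 and 55.6 in gliomaspheres, and controls overlapped with both of these groups. Bop1 and Pes1 work as 1 complex. Bop1 rose 3.06-fold, from 37.8 and 42.2 to 121 and 123. Pes1 rose less, from 86.5 and 89.5 to 108 and 112 (log2 0.32, adjusted p = 0.000494). Rrp15 rose 2.92-fold and Rrs1, which helps load the 5S particle, by a log2 of 1.41. The RNA methyltransferase Nop2 rose 1.94-fold. The lower end held Rrp1b (1.28-fold) and Rrp8 (1.39-fold).

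Of the RNA polymerase I subunits, 4 of 5 rose. Polr1a, the largest catalytic subunit (6:71909053-71984935), read 69.5 and 73.5 in controls, 204 and 223 in HER2CA day 15, 61.9 and 66.9 in the 4OH-TAM-labelled libraries and 65.9 and 74.8 in gliomaspheres. The increase was 2.99-fold (log2 1.58, adjusted p = 1.59e-10), and the other 3 groups overlapped or lay side by side between 61.9 and 74.8 CPM. Polr1e, a subunit used by polymerase I alone, rose 2.31-fold and Polr1b, the partner of Polr1a in the catalytic core, 1.95-fold. Polr1c and Polr1d are also subunits of RNA polymerase III. Polr1c rose by a log2 of 0.51, and Polr1d read 44.9 and 44.3 in controls and 47.3 and 48.6 in HER2CA day 15 (log2 0.10, SE 0.116, adjusted p = 0.422).

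Of the exosome genes 8 of 10 rose. Among the cap proteins, which contact entering RNA, Exosc2 rose 3.47-fold, from 16.9 and 17.1 to 58.0 and 59.99, Exosc1 rose 2.76-fold, from 27.5 and 29.4 to 79.7 and 77.1, and Exosc3 rose 1.79-fold. In the ring, Exosc5 rose 2.60-fold, Exosc8 2.26-fold and Exosc9 by a log2 of 0.89. Exosc7, which pairs with other ring subunits, read 20.2 and 17.6 in controls and 18.8 and 21.2 in HER2CA day 15, a log2 difference of 0.09 (adjusted p = 0.476). Exosc6 read 11.5 and 10.01 in controls, 11.3 and 10.6 in HER2CA day 15, 6.66 and 6.20 in the 4OH-TAM-labelled libraries and 11.99 and 12.4 in gliomaspheres. Its log2 difference from controls in HER2CA day 15 was 0.02 (adjusted p = 0.867), but its exons lie 100% within those of Aars on the same strand, so its counts are uncertain. Exosc4 rose by a log2 of 0.22 with an adjusted p of 0.0488, and in 16 of the 18 alternatives that were run that p was above 0.05. Exosc10, the nuclear nuclease on top of the ring, rose by a log2 of 0.91, from 59.8 and 60.9 to 113 and 115.

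All 5 other nucleolar proteins rose. Ncl, nucleolin, an RNA-binding protein of the dense nucleolus (1:86344719-86359400), read 510.5 and 522 in controls, 1315 and 1227 in HER2CA day 15, 582 and 626.5 in the 4OH-TAM-labelled libraries and 765 and 803 in gliomaspheres. It rose 2.46-fold (log2 1.30, adjusted p = 7.05e-10). Npm1, nucleophosmin of the outer nucleolus, rose 1.35-fold, from 337 and 334 to 469 and 437 (log2 0.43, adjusted p = 5.41e-05), and stood highest in gliomaspheres at 516 and 498. Nol8 rose 2.10-fold, Nol12 1.97-fold and Nol7 by a log2 of 0.48.

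The genes that share only the name went the other way. Nol3, known as an inhibitor of cell death (8:105276140-105281939), read 44.3 and 45.3 in controls, 10.1 and 9.76 in HER2CA day 15, 29.5 and 28.4 in the 4OH-TAM-labelled libraries and 34.0 and 36.3 in gliomaspheres. It fell 4.51-fold (log2 -2.17, adjusted p = 1.77e-11), though 48.2% of its exon bases overlap 4931428F04Rik on the opposite strand. Nol4l read 48.7 and 51.2 in controls, 13.7 and 16.0 in HER2CA day 15, 40.3 and 42.2 in the 4OH-TAM-labelled libraries and 92.6 and 92.8 in gliomaspheres, and fell 3.35-fold. Nol4 fell 5.41-fold, from 10.98 and 10.2 to 2.20 and 1.76. Both libraries of HER2CA day 15 were the lowest for all 3 genes.

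The second comparison put the 4OH-TAM-labelled libraries against HER2CA day 15. Of the 56 members 51 were lower, 4 were higher and 1, Nop9, was not called (log2 -0.17, adjusted p = 0.0702). Over all genes 39.7% were lower and 40.8% higher, or 5400 and 5547 genes. Upper-quartile factors made that 4109 lower and 6569 higher, and no scaling 2037 and 4338, with 46 and 34 members lower and 4 higher in each. The members' median was -1.01, beside 0.01 over all genes, and 28 members fell at least 2-fold. This comparison uses the same HER2CA day 15 libraries as the first, so their values are given side by side and are not independent. RNA polymerase I fell in 5 of 5 genes, the processome in 16 of 18, large-subunit assembly in 10 of 10, the snoRNP core in 5 of 5, the exosome in 10 of 10 and the other nucleolar proteins in 5 of 5.

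Nop56 fell 6.04-fold (log2 -2.59, SE 0.0744, adjusted p = 5.09e-13), beside its 7.98-fold rise over controls. Nop14 fell 4.18-fold (log2 -2.06), Rrp12 3.71-fold (log2 -1.89) and Nop58 3.47-fold (log2 -1.79). Utp11l fell 3.25-fold, Polr1a 3.32-fold, Nol9 3.31-fold and Dkc1 3.24-fold. In the exosome, Exosc8 fell 3.03-fold, Exosc1 2.94-fold and Exosc2 2.90-fold. Subunits that were not called against controls fell here: Nop10 to 18.8 and 18.4 (log2 -0.68, adjusted p = 1.71e-05), Exosc7 to 13.2 and 14.5 (log2 -0.53) and Polr1d to 37.2 and 34.1 (log2 -0.43). Npm1 showed the smallest called decrease, 1.22-fold (log2 -0.29, adjusted p = 0.00171). With upper-quartile factors its call was lost (adjusted p = 0.318), as were those of Exosc4, Polr1d, Rrp1 and Utp23.

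The 4 members that rose were Nol4 (log2 1.76), Nol3 (1.54), Nol4l (1.47) and Utp14b (0.64, adjusted p = 0.00777), which read 10.2 and 9.14 in the 4OH-TAM-labelled libraries. The call of Utp14b was lost without 4OH-TAM A (log2 0.56, adjusted p = 0.0524).

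The third comparison set gliomaspheres against controls, which also differ in doxycycline and HER2CA at once. The gliomaspheres were further kept in suspension at passage P1, harvested 3 weeks after the start, and listed with DMSO. In gliomaspheres 21 members were higher, 12 were lower and 23 were not called, with 32.5% of all genes higher and 32% lower. The members' shares were 37.5% and 21.4%, or 35.8% and 20.8% without the 3 that share only the name. No called change reached 2-fold. The median was 0.07, beside -0.01 over all genes. The snoRNP core rose in 4 of 5 genes. The processome fell in 6 of 18 (33.3%), near the share of all genes, and rose in 3 (16.7%).

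Fbl rose 1.55-fold to 66.7 and 77.4 (log2 0.63, adjusted p = 1.55e-05). Ncl and Nop58 each rose 1.52-fold, Npm1 rose 1.51-fold and Nop56 by a log2 of 0.59, all with both gliomasphere libraries above both controls. Exosc9 rose 1.45-fold to 44.7 and 52.0, although 10.8% of its exon bases overlap those of the cell-cycle gene Ccna2 on the opposite strand. Ccna2 read 1.31 and 0.906 in controls and 95.6 and 109 in gliomaspheres, and the strand setting of the counting is not known, so its part in the Exosc9 value was not tested. Nol4 and Nol4l each rose 1.86-fold.

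On the lower side stood Rrp36, a processome factor, which read 37.7 and 39.3 in controls and 24.2 and 19.4 in gliomaspheres (log2 -0.79, adjusted p = 1.21e-05). Exosc7 fell 1.48-fold to 13.03 and 12.2, Nol8 fell 1.47-fold to 37.3 and 40.1 and Nop9 fell 1.44-fold to 36.3 and 34.8. Nop14, Utp11l, Utp20 and Rrp12 were also lower, by 1.26-fold to 1.34-fold. Rrp12 was no longer called without gliomasphere A (adjusted p = 0.273) or without control B (0.0548). Utp14b read 8.21 in gliomasphere A and 14.5 in B, and its call (adjusted p = 0.0128) was lost without B (0.173).

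Gliomasphere B, the library with the high Rn45s share, was left out to see what rests on it. Without it 20 members were higher and 13 lower against controls, and with Rn45s and Lars2 taken out of the counts 21 were higher and 12 lower. Without any scaling factor 0 were higher and 6 lower, beside 1386 and 3260 of all genes, which were 4427 and 4353 with TMM. The median of all genes then shifted by -0.32, while the members' median was -0.26, which is 0.07 above that of all genes. Polr1d differed between the libraries, 54.8 in A and 38.3 in B. It was not called with both, and was higher than in controls without B (log2 0.30, adjusted p = 0.007).

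The fourth comparison set gliomaspheres beside HER2CA day 15. Suspension culture, passage P1 and harvest 3 weeks after the start, beside 15 days of doxycycline, cannot be told apart here. Of the members 47 were lower, 5 were higher and 4 were not called, while 40.4% of all genes were lower and 38.4% higher, or 5499 and 5228 genes. No scaling made that 4631 and 3030, with 42 members lower and 3 higher. The median was -0.71, beside -0.03 over all genes, and 25 members were lower by at least 2-fold. The processome was lower in 17 of 18 genes, with Nop14 5.67-fold lower (log2 -2.50, adjusted p = 1.45e-13), Rrp12 4.55-fold, Utp11l 3.76-fold and Rrp36 3.56-fold. Nop56 was 5.32-fold lower and Nop58 3.90-fold. Exosc1 was 3.57-fold lower, Exosc2 3.49-fold and Nol8 3.10-fold.

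The higher members were Nol4, by 10.1-fold, Nol4l, by 6.22-fold, Nol3, by 3.52-fold, Utp14b, by 1.72-fold, and Npm1, by 1.12-fold. Npm1 had an adjusted p of 0.0467, which was above 0.05 in 9 of 18 alternatives, and without scaling its log2 difference turned to -0.11. Exosc4, Exosc6, Polr1d and Rrp1 were not called. Rrp1 read 243 and 241 in HER2CA day 15 and 224 and 247 in gliomaspheres, against 173 and 175 in controls. Polr1d turned direction without gliomasphere B: its log2 difference was -0.01 with both libraries and 0.23 (adjusted p = 0.0221) with A alone.

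The last comparison set the 4OH-TAM-labelled libraries against controls, which differ in doxycycline, HER2CA and 4OH-TAM at once. Here 7 members were higher, 17 lower and 32 not called, against 31% of all genes higher and 28.2% lower, or 4221 and 3840 genes. No scaling made that 2115 and 539, with 1 member higher and 0 lower. With TMM and without the 3 members that share only the name, 7 were higher and 14 lower, or 13.2% and 26.4%. The median of all members was -0.03, beside 0.00 over all genes, and no member moved 2-fold. Nop58 stayed 1.71-fold above controls (log2 0.77, SE 0.0792, adjusted p = 1.13e-06) and Nop56 1.32-fold. Polr1e was higher by a log2 of 0.36. The lower genes included Exosc6, Nop10 (1.58-fold), Nop16 (1.51-fold), Rrp1b (log2 -0.57), Exosc7 (1.36-fold) and Exosc8 (1.34-fold), with Nol3 and Nol4 1.55-fold and 1.59-fold lower. For Nop14 the log2 difference was 0.06 (SE 0.0671) and for Dkc1 0.02 (SE 0.0757), neither called. The 7 higher calls became 3 without control A or B, 4 without 4OH-TAM A or B, 8 without gliomasphere A and 9 without gliomasphere B.

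A list of 123 further ribosome biogenesis and exosome factors, also drawn up with earlier results of these data known, had 116 in the table. In HER2CA day 15 against controls 107 of these were higher, 6 lower and 3 not called, or 92.2% higher beside 37.3% of all genes, with a median of 1.07. Ddx21, a nucleolar helicase, read 108 and 109 in controls, 484 and 489 in HER2CA day 15, 129 and 143 in the 4OH-TAM-labelled libraries and 159.8 and 149 in gliomaspheres. Ftsj3, a methyltransferase of large-subunit assembly, read 106 and 104.5 in controls, 405 and 419.5 in HER2CA day 15, 92.8 and 94.8 in the 4OH-TAM-labelled libraries and 86.9 and 90.6 in gliomaspheres. Gliomaspheres were thus the lowest group for Ftsj3, while for Ddx21 they stood above controls. Wdr43, a processome protein, rose by a log2 of 2.45, Imp4, of the U3 complex, by 2.24, Wdr74, of large-subunit assembly, by 2.28, Znhit6, a box C/D assembly factor, by 1.98, Dis3, the catalytic exosome nuclease, by 1.53 and Skiv2l2, the helicase that feeds the nuclear exosome, by 1.35. The 6 lower genes were Znrd1, Pih1d1, Dis3l, Rbm7, Wdr61 and Las1l, with log2 differences from -0.82 to -0.21. Dis3l is the nuclease of the cytoplasmic exosome: it read 32.3 and 36.2 in controls and 22.1 and 20.5 in HER2CA day 15, while Dis3 read 38.9 and 36.0 and then 104 and 111.

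In the 4OH-TAM-labelled libraries against HER2CA day 15 the further factors were lower in 109 of 116 and higher in 3, Dis3l, Pih1d1 and Znrd1, with a median of -1.14, beside 39.7% of all genes lower. Against controls gliomaspheres had 26 higher and 32 lower, which is 22.4% and 27.6%, both below the 32.5% and 32% of all genes. The members had more higher than lower calls there, and the further factors fewer. The 4OH-TAM-labelled libraries had 22 higher and 32 lower, which is 19% and 27.6%, beside 31% and 28.2% of all genes. Imp4 was an exception there, with log2 differences of 1.13 and 1.17 over controls: it read 15.9 and 15.9 in controls, 76.6 and 74.5 in HER2CA day 15, 32.9 and 38.8 in the 4OH-TAM-labelled libraries and 34.95 and 34.7 in gliomaspheres. Gliomaspheres against HER2CA day 15 had 107 lower and 4 higher, beside 40.4% and 38.4% of all genes.

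Myc itself did not follow the members in every group. It read 20.3 and 21.1 in controls, 102 and 108 in HER2CA day 15, 59.8 and 68.9 in the 4OH-TAM-labelled libraries and 99.1 and 116 in gliomaspheres. Against controls it was higher by a log2 of 2.34 in HER2CA day 15, 1.64 in the 4OH-TAM-labelled libraries and 2.37 in gliomaspheres, while the members' medians in the same comparisons were 0.96, -0.03 and 0.07. Gliomaspheres and HER2CA day 15 differed in Myc by a log2 of 0.03 (SE 0.0891, adjusted p = 0.789). Mycn was low throughout, from 1.07 to 4.82 CPM.

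Of the 11 genes of the MYC network 4 were higher and 5 lower in HER2CA day 15 against controls, which is 36.4% and 45.5%, near the 37.3% and 38.4% of all genes. In the 4OH-TAM-labelled libraries against HER2CA day 15, 3 were higher and 6 lower, which is 27.3% and 54.5%, beside 40.8% and 39.7% of all genes. Mxd4, a repressor that competes for the partner of MYC, read 31.7 and 31.7 in controls, 10.04 and 9.56 in HER2CA day 15, 32.6 and 35.2 in the 4OH-TAM-labelled libraries and 66.6 and 50.7 in gliomaspheres. HER2CA day 15 was thus the lowest group for Mxd4, where it was the highest for most members. Max, the shared partner, read 67.9 and 68.8 in controls, 108 and 118 in HER2CA day 15, 79.5 and 86.5 in the 4OH-TAM-labelled libraries and 71.5 and 75.6 in gliomaspheres. Mga, a large protein that pairs with MAX, read 184 and 152 in controls, 321 and 326 in HER2CA day 15, 118 and 126 in the 4OH-TAM-labelled libraries and 95.97 and 117 in gliomaspheres. Mxi1, another repressor of the family, read 120.1 and 119 in controls, 57.9 and 51.0 in HER2CA day 15, 70.5 and 66.4 in the 4OH-TAM-labelled libraries and 67.3 and 71.7 in gliomaspheres. Mga was thus highest and Mxi1 lowest in HER2CA day 15. Mlx also stood highest there, at 47.7 and 51.8 against 39.1 and 39.0 in controls and less in the other groups. Mycl had its lowest mean there, at 4.91 against 5.47 in the 4OH-TAM-labelled libraries, with overlapping libraries. Mnt and Mxd1 had no extreme there. Mnt read 51.1 and 49.8 in controls, 40.4 and 41.2 in HER2CA day 15, 26.1 and 31.3 in the 4OH-TAM-labelled libraries and 24.4 and 25.8 in gliomaspheres. Mxd1 read 25.65 and 25.8 in controls, 21.2 and 22.25 in HER2CA day 15, 17.0 and 15.6 in the 4OH-TAM-labelled libraries and 33.2 and 31.8 in gliomaspheres. Whether any of these bears on the members was not tested.

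**Figure D4:**
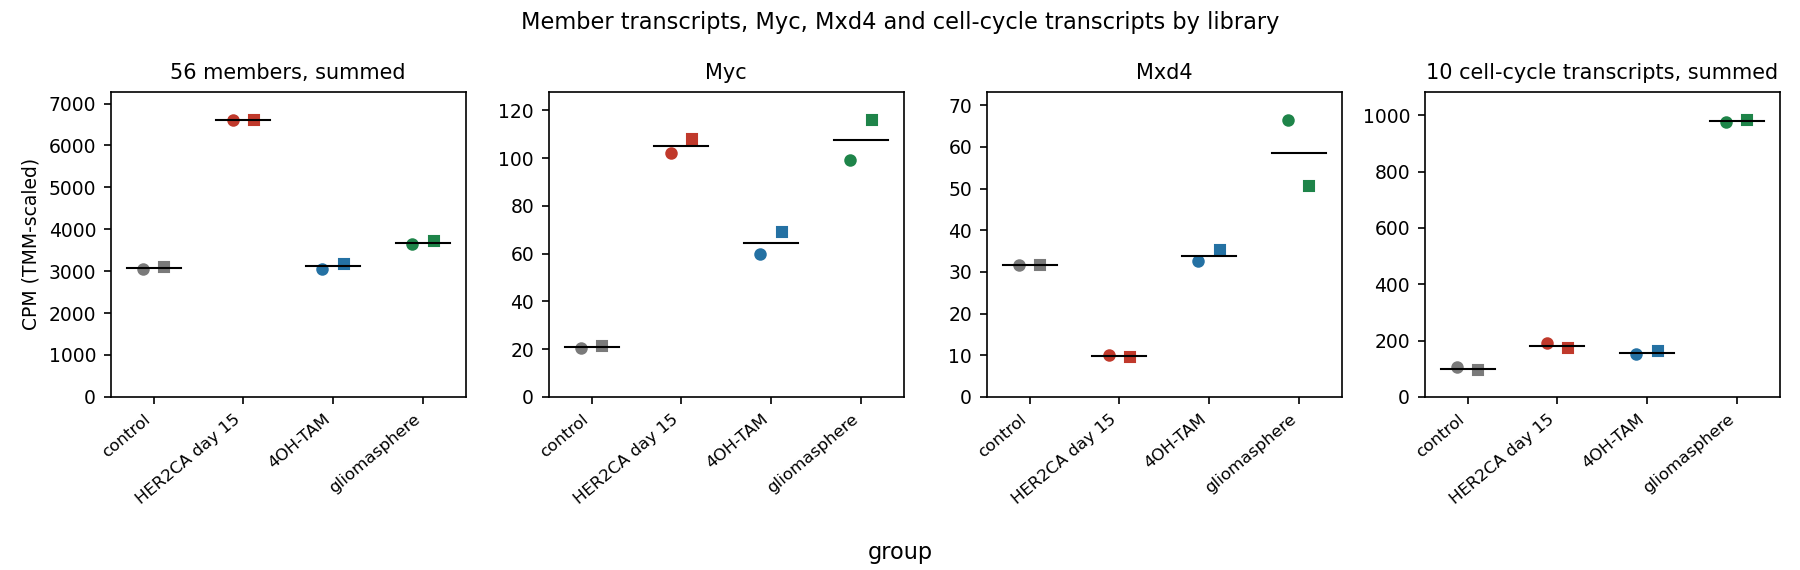
CPM (vertical axes, from 0, TMM-scaled) in the 4 groups for the sum of the 56 members, Myc, Mxd4 and the sum of 10 cell-cycle transcripts, circles for library A, squares for library B and a bar at the mean of 2. The member sum is highest in HER2CA day 15, Myc is about as high in gliomaspheres as in HER2CA day 15, and the cell-cycle sum is 978 to 985 CPM in gliomaspheres and at most 192 elsewhere.

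Markers of cell state and cell type also moved between the groups. The 10 cell-cycle transcripts summed to 95.2 to 105 CPM in controls, 173 to 192 in HER2CA day 15, 151 to 162 in the 4OH-TAM-labelled libraries and 978 to 985 in gliomaspheres, so the group with the highest member sum was not the one with the highest cell-cycle sum. In HER2CA day 15 against controls 4 of the 10 were higher, 3 lower and 3 not called. That is 40% higher and 30% lower, near the 37.3% and 38.4% of all genes. Most of the HER2CA day 15 cell-cycle sum came from 2 replication genes. Mcm2 read 67.4 and 63.7 CPM against 16.0 and 17.4 in controls, and Pcna 102 and 92.0 against 58.1 and 50.01. The remaining markers were mixed. Mki67 had a lower mean in HER2CA day 15 than in controls, at 3.12 and 1.38 against 2.88 and 2.64, with overlapping libraries. Ccnb1, at 1.51 and 0.414 against 2.15 and 2.06, also had a lower mean there, as did Top2a and Cdk1. Ccna2 went the other way, at 2.38 and 2.14 against 1.31 and 0.906, as did Bub1, at 1.01 and 0.483 against 0.384 and 0.371. The 10 astrocyte markers were all in the table and summed to 6003 to 7031 CPM in controls, 2638 to 2711 in HER2CA day 15, 11987 to 12456 in the 4OH-TAM-labelled libraries and 11281 to 11762 in gliomaspheres. In HER2CA day 15 against controls 9 of the 10 were lower, beside 38.4% of all genes. The 1 not called was Sox9, at 331 and 304 against 282 and 297 in controls. S100b, the astrocyte marker with the largest decrease, read 0.275 and 0.207 in HER2CA day 15 and 9.68 and 12.3 in controls. Unlike the sum, it was lower in the 4OH-TAM-labelled libraries than in controls, at 6.28 and 7.61. Of 13 microglia markers 12 were in the table, and their sum was 1098 to 1140.3 CPM in the 4OH-TAM-labelled libraries and 115 to 236 in the others. Lyz2 alone read 729 and 713 in the 4OH-TAM-labelled libraries. Of the 12, 11 were higher there than in HER2CA day 15 and 1, Cd68, was lower, beside 40.8% and 39.7% of all genes. Of 10 oligodendrocyte-lineage markers 9 were in the table. They summed to 465 to 500.3 CPM in controls, 109.8 to 119 in HER2CA day 15, 887 to 926 in the 4OH-TAM-labelled libraries and 2974 to 3283 in gliomaspheres. Most of the gliomasphere sum was Olig1 and Olig2, with means of 2259 and 691. Against controls 7 of the 9 were higher and 2 lower in the 4OH-TAM-labelled libraries, and 6 higher and 2 lower in gliomaspheres. Cspg4 had means of 143 in controls, 64.1 in the 4OH-TAM-labelled libraries and 83.8 in gliomaspheres, and Mbp of 43.8, 19.7 and 7.04. Of the 8 neuronal markers 5 were in the table, with sums of 132 to 141 CPM in HER2CA day 15 and 341 to 599 elsewhere. Most of the HER2CA day 15 sum was Map2, at 98.4 and 104. In HER2CA day 15 against controls 2 of the 5 were lower, 1 was higher and 2 were not called. The neuronal gene Dcx read 0 in both HER2CA day 15 libraries, but also only 0 and 0.0412 in controls. Elavl4 went the other way, at 1.1 and 1.24 in HER2CA day 15 against 0.614 and 0.412 in controls. The 7 fibroblast and mural markers in the table summed to 310.2 to 310.6 CPM in HER2CA day 15 and 49.7 to 407 elsewhere. Most of the HER2CA day 15 sum was Acta2, at 240 and 236. Single markers did not all follow the sum. Col1a1 read 19.2 and 19.9 in HER2CA day 15 and 83.4 and 65.5 in the 4OH-TAM-labelled libraries, and Pdgfrb read 2.20 and 2.59, then 29.6 and 23.4. Col1a1, Col1a2, Dcn and Pdgfrb were highest in the 4OH-TAM-labelled libraries, Acta2 in HER2CA day 15 and Tagln in controls. Of 6 endothelial markers 2 were in the table, with sums of 3.00 to 3.16 CPM in HER2CA day 15 and 11.9 to 38.4 elsewhere. The part of these cell-type and cell-state differences in the member results was not tested.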

How the data were processed

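Poly(A) RNA of mouse astrocytes was sequenced from stranded libraries, per the labels' protocols, 2 in each of 4 groups. The values are raw counts per gene, deposited by the authors as 1 table of 13607 genes and 8 libraries. The tools named are FastQC, STAR 2.5.3a and featureCounts and the builds mm10 and GRCm38, per the submitters' processing notes. Gene models and strand option of the counting: not given in the sources used here. Every gene had at least 1 CPM in 2 libraries. No column was left out.

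All 8 libraries were fitted together with edgeR 4.0.16 (R 4.3.3): TMM factors, filterByExpr, which kept all 13607 genes, and the quasi-likelihood test on 4 residual degrees of freedom, with a common BCV (biological coefficient of variation) of 0.0685. P-values were adjusted by Benjamini-Hochberg over all genes and called at 0.05. The standard error (SE) is the size of the log2 fold change over the square root of F. The script was tested on simulated data. Tables and plots used Python 3.11.15, pandas 2.3.3 and matplotlib 3.10.9.

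The members and all role, pathway and marker lists were chosen with earlier results of these data known. Values in every library were to be given for the 4 largest increases and decreases per comparison among called members whose libraries did not overlap, and for the lowest p in each role. The pathway genes named were taken from the 2 with the lowest p per list and comparison, not all of which are named, with Myc, Mycn, Yap1, Wwtr1 and Rn45s. Dis3l, Znrd1, Rbm7, Las1l, Max, Mlx, Mycl, Mnt, Mxd1, the single marker genes and members named beyond that rule were chosen after their values were seen. Gene positions are those of GENCODE M21 on GRCm38, where 1 member, Utp11l, was matched by a synonym. The alternatives were relative log expression, upper-quartile and no scaling factors, DESeq2 1.42.0, no filter, a filter of 5 CPM in 2 libraries, only the 2 groups compared, a test against a 1.5-fold change, a replicate block, removal of Rn45s and Lars2, and each library left out.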

Additional observations from a re-analysis of the deposited data

How the results depend on the processing

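Direction held for the members' medians in HER2CA day 15 against control, 4OH-TAM against HER2CA day 15 and gliomasphere against HER2CA day 15 under every alternative run. With upper-quartile factors the medians were 0.80, -0.80 and -0.59 in these, and 0.0326 in gliomasphere against control and 0.0244 in 4OH-TAM against control. Without scaling they were 0.91, -0.89, -0.99, -0.26 and 0.0418. The median of all genes shifted with them, and the members' median minus that of all genes stayed at 0.98 in HER2CA day 15 against control and -1.02 in 4OH-TAM against HER2CA day 15. A filter of 5 CPM, which tests fewer genes, gave 0.92, -0.94 and -0.66, and only the 2 groups compared gave -0.67 in gliomasphere against HER2CA day 15.

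Without scaling, gliomaspheres had 0 members higher and 6 lower against control and 3 higher against HER2CA day 15, and 4OH-TAM had 1 higher and 0 lower against control. A test against a 1.5-fold change, stricter by construction, gave 2 and 1, then 3 higher and 28 lower, then 1 and 0. Without scaling Exosc4 (-0.0635), Polr1c (-0.0694) and Rrs1 (-0.0387) turned lower in gliomaspheres against control, as did Npm1 (-0.11) against HER2CA day 15. Without gliomasphere B, Polr1d turned from -0.01 to 0.23 against HER2CA day 15, and without gliomasphere A it was -0.32.

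With each library left out, members higher in 4OH-TAM against control numbered 3 to 9. The medians ran from 0.90 to 1.03 in HER2CA day 15 against control, -1.06 to -0.95 in 4OH-TAM against HER2CA day 15, -0.79 to -0.70 in gliomasphere against HER2CA day 15 and -0.0890 to 0.0213 in 4OH-TAM against control. Libraries with the same letter did not deviate together (correlations -0.03 to 0.06). With 2 libraries per group this cannot tell whether those of 1 letter shared a culture or preparation. The replicate block gave 47 members higher and 3 lower in HER2CA day 15 against control, and the calls of Exosc4 there (adjusted p = 0.055) and of Nop10 (0.0612) and Npm1 (0.0509) in gliomasphere against HER2CA day 15 were lost.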
